A study of Homo sapiens with 4 samples.

Results

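The m6A peaks described here are those of 9 Krüppel-like factor (KLF) genes, KLF3, KLF4, KLF5, KLF6, KLF7, KLF9, KLF10, KLF11 and KLF13, in prostate epithelial cells with and without knockdown of FTO. The rule took every peak that lay on the gene's strand and overlapped its hg19 locus, whose limits were given in whole kb, by at least 1 bp. It used position alone and no peak value. It found 16 of the 20410 deposited peaks, 4 of 10087 in control cells and 12 of 10323 in FTO knockdown cells. The cells were RWPE1, a line of normal human prostate epithelium immortalized with human papillomavirus. They were infected with lentivirus carrying 1 shRNA against FTO (shFTO), the enzyme that removes m6A from RNA, or the vector (shCtrl), and both lines were kept as stable populations under puromycin. MeRIP-seq enriches methylated RNA fragments with an m6A antibody (IP), and peaks are called where the IP reads exceed those of the input RNA. Each condition had 1 IP and 1 input library, 4 libraries in all, so no difference between shFTO and shCtrl cells has a replicate check and no test between them was made.

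KLF proteins are transcription factors that bind GC-rich and CACCC elements in DNA through C2H2 zinc fingers near their C terminus. Their N-terminal parts differ and sort the family by the cofactors they recruit: KLF3 binds the corepressor CtBP, KLF4, KLF5, KLF6 and KLF7 act largely as activators, and KLF9, KLF10, KLF11 and KLF13 bind the corepressor SIN3A. In epithelia, KLF5 is known for proliferation of basal cells and KLF4 for differentiation, and KLF6 was described as a tumor suppressor in prostate cancer. Many KLF mRNAs are short-lived, and m6A is a mark that can change the stability and translation of the mRNA that carries it.

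The lists give for each peak a position, a strand, a number and a score, taken here as 10 times the −log10 of the peak caller's P value and ranked within its own list alone. They hold no read counts, so the depth behind a peak is unknown, a missing peak may lie under the limit of detection, and more m6A and more mRNA of a gene cannot be told apart. The knockdown of FTO itself cannot be checked in peak lists. The paper reports a western blot of FTO in the knockdown and control RWPE1 cells as its check of the depletion. In both lists the peak numbers ran in order along all 24 chromosomes with 0 breaks, up to 173974 in shCtrl cells and 161598 in shFTO cells, so numbers that were skipped stand for regions that were numbered and are not in the lists. In the RefSeq gene table, which is of another build (GRCh38.p14), all 9 genes lay on the chromosome of their locus, and the strand was the same for the 7 genes with an entry in the table of start windows. Gene length differed from locus length by at most 5.72 kb, except for KLF13, whose RefSeq gene was 108.8 kb long against a locus of 52 kb.

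In FTO knockdown cells 8 of the 9 KLF loci carried a listed peak, and in control cells 3 of 9 did. KLF5, KLF6, KLF9, KLF10 and KLF13 had peaks in the shFTO list alone, 7 peaks in all. KLF3, KLF7 and KLF11 had peaks in both lists, and KLF4 had none in either. No KLF gene had peaks in the shCtrl list alone. The share of all genes with a peak was not measured, since no annotation of hg19 was used. As a background the genome was cut, strand by strand, into stretches of 23 kb, the median length of the KLF loci, a choice made after the peaks were seen. Of the 13025 stretches with a listed peak, 64.2% held an shFTO peak and 63.7% an shCtrl peak, and 36.3% had peaks in the shFTO list alone and 35.8% in the shCtrl list alone. Of the 8 KLF loci with a peak, all 8 held an shFTO peak and 3 an shCtrl peak, and 5 were listed in shFTO cells alone. Such stretches do not follow gene borders as the loci do, and the comparison was not tested. The shFTO list thus held 3 times as many KLF peaks as the shCtrl list, while the whole lists differed by a ratio of 1.02. No peak lay on the opposite strand of any of the 9 loci in either list.

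**Figure D1:**
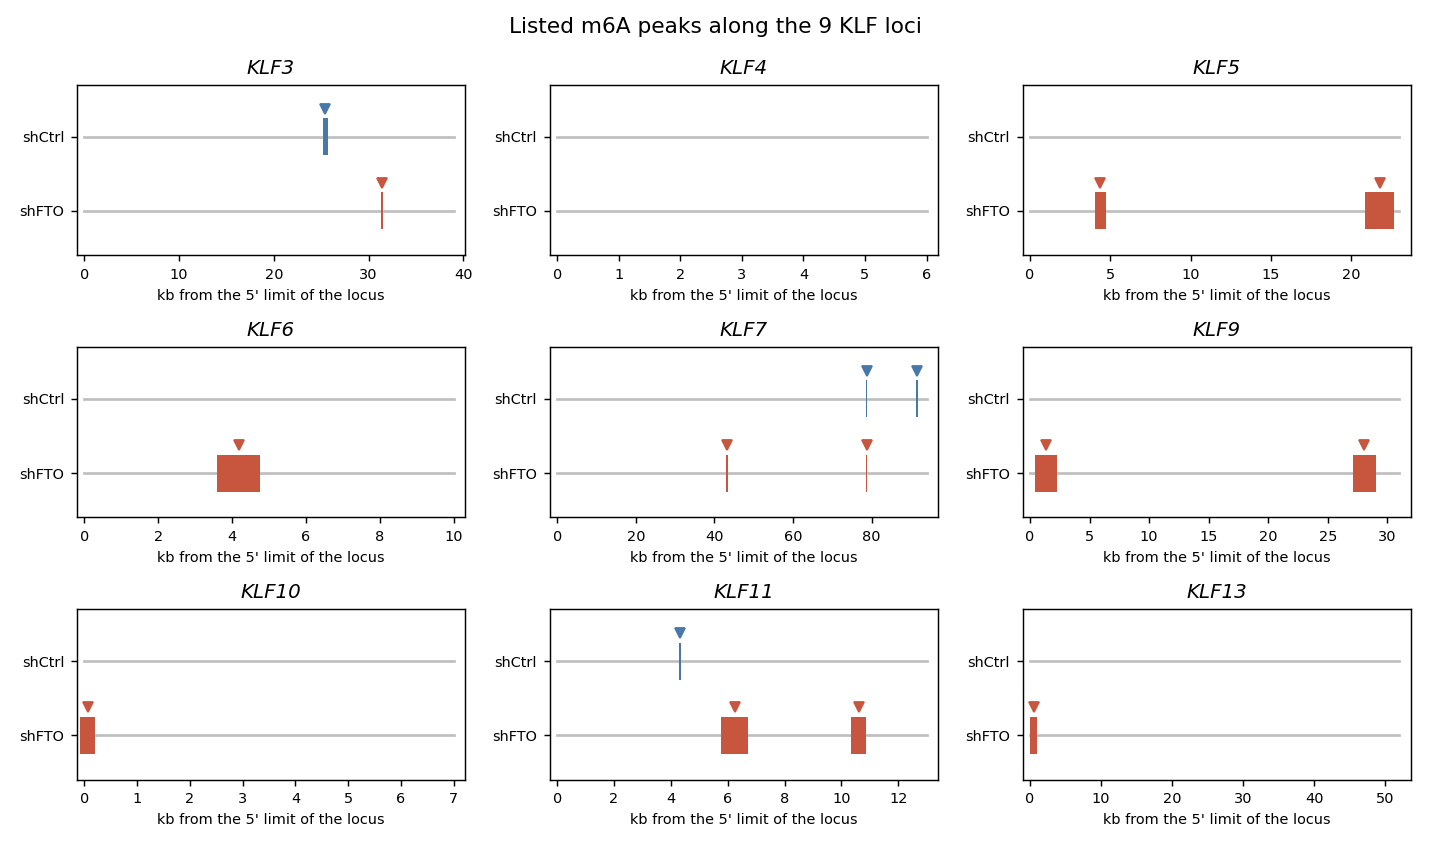
Peaks of the shCtrl list (blue, upper line) and the shFTO list (red, lower line) along each KLF locus, drawn to scale in kb from the 5′ limit of the locus in the direction of transcription, with a triangle over each peak. Blue marks appear in 3 of the 9 panels and red marks in 8, and the panel of KLF4 is empty.

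Among the 4 activators, the shCtrl list held 2 peaks, both of KLF7, and the shFTO list held 5 peaks of KLF5, KLF6 and KLF7. KLF5, which drives growth of basal epithelial cells, had 2 shFTO peaks and no shCtrl peak. The first lay at chr13:73633026-73633726 on the plus strand, 701 bp wide and 4025 bp from the 5′ limit of the locus, with a score of 3100. This value was shared by 611 shFTO peaks, which have no order among themselves, and 93.8% of the list scored lower. The second lay at chr13:73649846-73651680, 1835 bp wide, and ended 320 bp before the 3′ limit of the locus, with a score of 200.8 that 47.4% of the list fell below. KLF5 therefore carried a narrower peak of high score in its 5′ part and a wide peak of middling score at its 3′ end. The nearest shCtrl peak on the same strand was 150206 bp from the first of them.

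KLF6, a zinc finger protein induced by growth factors and injury, had 1 shFTO peak, at chr10:3823250-3824406 on the minus strand, with its centre 4.17 kb from the 5′ limit of a 10 kb locus. It was 1157 bp wide, and its score of 3162.73 was above that of 99.8% of the shFTO list, the highest listed value among the KLF peaks. It was 1 of 28 shFTO peaks listed above 3100. What the shared value of 3100 stands for is not stated in the sources used here. The order of the 611 peaks at 3100, the first of KLF5 among them, against those 28 is therefore not known. The nearest shCtrl peak on that strand was 608341 bp away.

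KLF7, known for its role in neuronal development, had 2 peaks in each list. A peak at chr2:207953182-207953305 on the minus strand was in both lists with the same start and end, 124 bp wide. Its score was 59.46 in shCtrl cells, where 6.73% of the list scored lower, and 129.47 in shFTO cells, where 33.9% did. This was the 1 pair among the KLF peaks, and over the whole lists 55.9% of 1994 pairs of 1 peak with 1 peak had the same edges. The other shCtrl peak, at chr2:207940262-207940762, was 501 bp wide, lay 2261 bp from the 3′ limit and scored 263.85. The other shFTO peak, at chr2:207988498-207989128, was 631 bp wide, lay near the middle of the 94 kb locus and scored 2035.91, above 90.4% of its list. The list-specific peaks of KLF7 thus lay in different parts of the locus in the 2 conditions.

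KLF4, a factor of epithelial differentiation and of reprogramming to pluripotency, had no listed peak in either condition. No peak of either list lay on its strand within 1 Mb to either side. This does not show that its mRNA is unmethylated or absent, since between the nearest listed peaks to its left and right 48 numbers were skipped in shCtrl cells and 23 in shFTO cells.

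Among the 4 SIN3A-binding genes, the shCtrl list held 1 peak, of KLF11, and the shFTO list held 6 peaks that fell on all 4 genes. KLF9, a factor induced by glucocorticoid and thyroid hormones, had 2 shFTO peaks, both wide and of high score. The peak at chr9:73027775-73029573 on the minus strand began 427 bp inside the 5′ limit, was 1799 bp wide and scored 2574.11, above 92.3% of the list. The peak at chr9:73000999-73002921 ended 1998 bp before the 3′ limit, was 1923 bp wide and scored 2016.17, above 90.3% of the list. Together they covered 3722 bp, the most of any KLF gene, and the nearest shCtrl peak on that strand was 1325405 bp away.

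Because m6A is placed in a short RNA motif with GGAC at its core, the first 50 transcribed bases of the KLF genes were searched for GGAC on the RNA strand in RefSeq's start windows, as the part of these transcripts for which sequence was used here. Of 12 windows from 7 KLF genes 1 held it, that of KLF9, and 18.9% of all 35116 windows did. It is shown because the 5′ peak of KLF9 lies near this end of the gene, with GGAC in capitals, for transcribed bases 11 to 40 at chr9:70414618-70414647 on the minus strand of GRCh38.p14. As this is another build than that of the peaks, whether it lies inside the peak was not determined, and a match is no evidence of a methylated base.
KLF9: tgtgtttattcttGGACttatcctgacata

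KLF10 and KLF11 are known as genes induced by TGF-β. KLF10 had 1 shFTO peak, at chr8:103667794-103668078 on the minus strand, 285 bp wide and with a score of 166.14, which 41.8% of the list fell below. It extended 78 bp beyond the 5′ limit of the locus, so it belongs to KLF10 by overlap and is lost if a peak must lie wholly inside. KLF11 had a narrow shCtrl peak of 86 bp at chr2:10186277-10186362 on the plus strand, with a score of 186.32. Its first shFTO peak, at chr2:10187777-10188722, began 1414 bp after the end of the control peak, was 946 bp wide and scored 348.17. Its second, at chr2:10192354-10192882, was 529 bp wide, ended 2118 bp before the 3′ limit and scored 141.02. The KLF11 peaks of the 2 conditions were thus close to each other without overlapping.

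KLF13, a regulator of chemokine expression in T cells, had 1 shFTO peak, at chr15:31619058-31619992 on the plus strand. It began 57 bp inside the 5′ limit of the locus, was 935 bp wide and scored 470.47, above 68.1% of the list. Lengthening the locus to the length of the RefSeq gene added no peak of either list.

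KLF3, the CtBP-binding repressor, had 1 peak in each list and was the 1 gene of the 9 with a longer covered stretch in control cells. The shCtrl peak at chr4:38690206-38690692 on the plus strand was 487 bp wide and scored 476.68, above 75.9% of its list. The shFTO peak at chr4:38696367-38696527 was 161 bp wide and scored 382.31, above 63.3% of its list. They lay 5674 bp apart, with the shFTO peak nearer to the 3′ limit.

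The share of KLF peaks without a partner was near that of the whole lists. In shFTO cells 11 of 12 KLF peaks overlapped no shCtrl peak, against 80.4% of the list, and in shCtrl cells 3 of 4 overlapped no shFTO peak, against 79.8%, so the lack of a partner says nothing particular about these genes. What differed from the background was the side: of the 14 list-specific KLF peaks 11 were shFTO-only, against 50.8% of the 16358 list-specific peaks of all genes. These counts are a description of 2 library pairs, and the genes were chosen with results of these data known. On the same strand within 1 Mb of the loci, the loci themselves left out, there were 34 shCtrl peaks and 37 shFTO peaks. They covered 10664 bp and 16997 bp. Around single genes the counts were small and uneven. Of the genes listed in shFTO cells alone, KLF5 had 1 shCtrl and 6 shFTO peaks around it, and KLF6 had 4 and 3. KLF9 had 0 and 2, KLF10 had 2 and 2, and KLF13 had 1 and 3. Of the genes in both lists, KLF3 had 9 and 5, KLF7 had 6 and 6, and KLF11 had 11 and 10. Whether the surroundings share the lean of the loci was not tested.

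In FTO knockdown cells the KLF peaks were wide for their list. The 12 shFTO peaks ran from 124 to 1923 bp with a median of 818 bp, against 242 bp over the shFTO list. Of these 7 were above the upper quartile of the list, 634.5 bp, where 25.0% of the list was, and the KLF7 peak of 631 bp lay just under it. The 4 shCtrl peaks ran from 86 to 501 bp with a median of 305.5 bp, against 212 bp over the shCtrl list, and 2 of 4 were above the upper quartile of 472 bp, where 25.0% of the list was. Peaks on the same strand within 1 Mb of the loci had a median width of 186 bp for shFTO and 166 bp for shCtrl, both under the median of their list. By score, 5 of 12 shFTO peaks (2 of KLF9 and 1 each of KLF5, KLF6 and KLF7) and 1 of 4 shCtrl peaks, that of KLF3, were above the upper quartile of their list, where 25.0% of each list was. Wide peaks were not always those of high score, as the 3′ peak of KLF5 shows with a width above 94.2% and a score above 47.4% of the list.

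**Figure D2:**
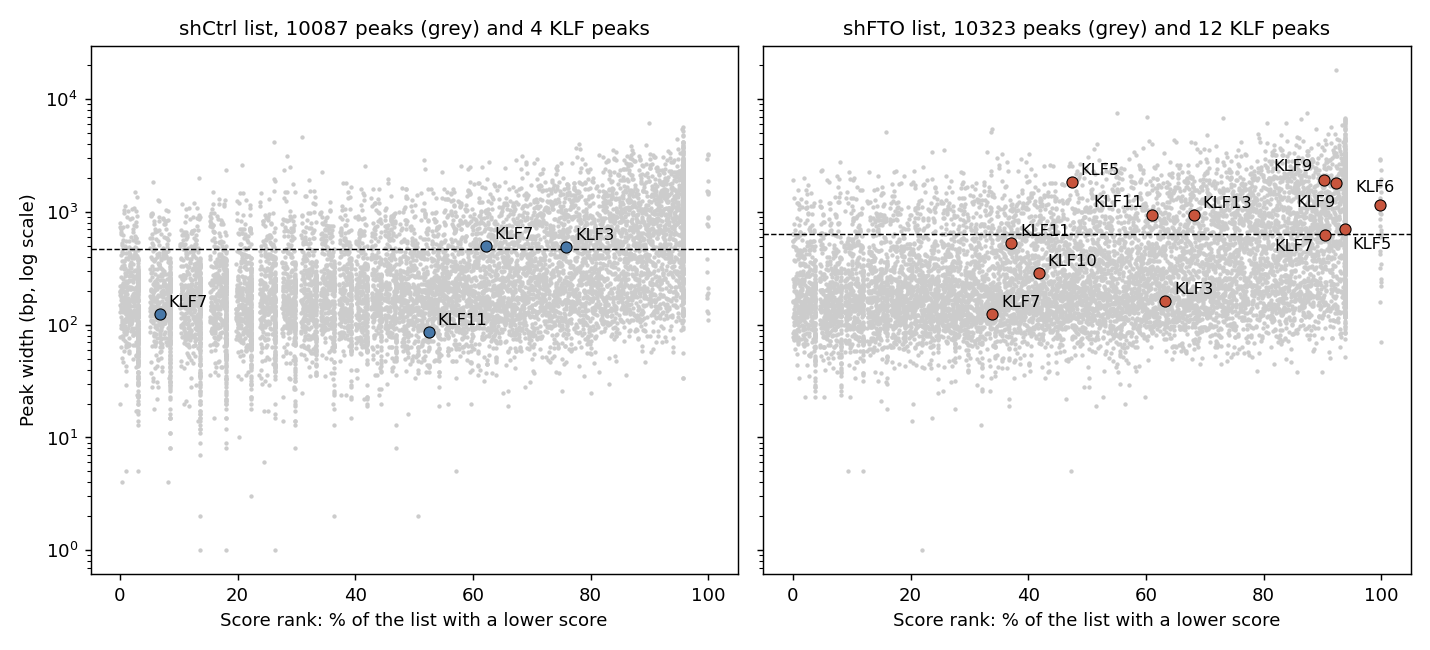
Width of each peak in bp on a log scale against its score rank, given as the percentage of the same list with a lower score, for the shCtrl list (left) and the shFTO list (right). Grey points are all peaks, coloured points are KLF peaks with their gene, and the dashed line is the upper quartile of width in the list, above which lie 7 of the 12 shFTO and 2 of the 4 shCtrl KLF peaks.

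The KLF peaks covered 11026 bp in shFTO cells and 1198 bp in shCtrl cells, a ratio of 9.20, while the ratio over the whole lists was 1.34. A sum of this kind follows how many peaks were listed and how wide each was. KLF9 with 3722 bp and KLF5 with 2536 bp made up the greater part of the shFTO length, followed by KLF11 with 1475 bp and KLF6 with 1157 bp. Of the 3 genes with peaks in both lists, KLF11 covered 86 bp in shCtrl and 1475 bp in shFTO cells, KLF7 covered 625 bp and 755 bp, and KLF3 covered 487 bp and 161 bp. They therefore did not all run the same way. Single genes moved the ratio of 9.20 by over 1.5 times: it was 17.9 without KLF7, 15.3 without KLF3 and 6.10 without KLF9.

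Numbers were skipped around every KLF locus in both lists. Between the nearest listed peaks to the left and right of a locus, on either strand, from 27 to 90 numbers were not listed in shCtrl cells and from 23 to 58 in shFTO cells. These stretches run beyond the loci, so most of the skipped regions may belong to neighbouring genes. Some lay inside a locus for certain, between 2 of its listed peaks: 2 in KLF5, 5 in KLF9 and 6 in KLF7 in the shFTO list, and 5 in KLF7 in the shCtrl list. Between the 2 shFTO peaks of KLF11 there were 0. The strand and score of a skipped region are not known. As the lists are named as m6A peaks of mRNA, skipped regions may also lie outside mRNA, which was not tested. For KLF5, KLF6, KLF9, KLF10 and KLF13 the shCtrl list skipped from 27 to 90 numbers in the stretch that holds the locus, so the absence of a listed shCtrl peak there was not separated from the selection of the peaks that were listed.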

How the data were processed

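Per the labels, MeRIP-seq libraries were made with a directional kit from total RNA of RWPE1 cells, 1 IP and 1 input library per condition, and the submitters' processing notes name cutadapt 1.9.3, HISAT2 and hg19. Both lists are named as m6A peaks of mRNA, which may be part of how the listed peaks were selected. The peak caller's settings and the rule of selection are not given in the sources used here, and the peaks carry MACS names. The deposited score of each peak is the authors'. It was taken as 10 times the −log10 of a P value, the usual MACS score, as the lowest values were 50.03 (shCtrl) and 50.05 (shFTO). Depth per sample is unknown.

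Peaks were assigned to the KLF loci by strand and an overlap of at least 1 bp. Partners were peaks of both lists with at least 1 bp in common on any strand. Score and width ranks are the percentage of the same list with a lower value. Positions are 1-based on hg19. Analyses used Python 3.11.15 with pandas 2.3.3 and numpy 2.4.6, and the overlap search was tested on simulated lists. All 9 genes are named with all their peaks. The genes, the roles and the tests were chosen with earlier results of these data known, and the flanks, the 23 kb stretches, the peak numbers and the search for GGAC were added after seeing the peaks. Alternatives covered the overlap, the strand, the score, merging, the extent of the locus and leaving out each gene. Other KLF and SP genes were not analysed here, as no annotation of hg19 was used.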

Additional observations from a re-analysis of the deposited data

How the results depend on the processing

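The shFTO list held more KLF peaks than the shCtrl list under all 6 alternatives to the score, merging, strand and extent of the locus. Merging peaks within 100 bp, taking either strand and extending the locus by 1 kb left the counts at 12 and 4, so these added no further check. The 1 alternative added after seeing the data (the longer KLF13 locus) did not change them either. Leaving out any 1 of the 9 genes could not reverse the excess of shFTO peaks, as no gene had over 2 peaks in either list. The other 4 alternatives define partners and cannot change the number of peaks. The number of shFTO peaks ran from 8 to 12 and of shCtrl peaks from 2 (without KLF7) to 4. When peaks under their list's median score were dropped, and with the 5000 highest-scoring peaks of each, there were 8 shFTO and 3 shCtrl peaks, and the shared KLF7 peak was lost, which left 0 pairs and 0 of equal width, as without KLF7. The covered shCtrl length fell from 1198 bp to 711 bp without KLF3 and 573 bp without KLF7, and the shFTO length from 11026 bp to 7304 bp without KLF9. Their ratio of 9.20 ran from 6.10 without KLF9 to 17.9 without KLF7, with 15.3 without KLF3. No other count, length or ratio moved by over 1.5 times. No paired analysis was possible because a single IP and a single input library stand for each condition. Unknown depth and the partial lists limit what an absent peak shows.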
